A study of Gallus gallus with 9 samples.

Results

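Of the 15294 genes measured in DF-1 chicken fibroblasts, 109 were close to silent in attached culture and on in suspension culture. They were chosen by their measured levels, in FPKM, a unit that scales sequenced fragments by transcript length and by library size. A gene was taken if its mean was under 0.5 FPKM in the attached group, 2D, and at least 3 FPKM in one or both of the suspension groups, 3D_L and 3D_E, with every library of that suspension group at 1 FPKM or more. "On" and "silent" stand for these levels below. The 109 genes fall into 31 on in both 3D_L and 3D_E, 16 on in 3D_L only and 62 on in 3D_E only. Because the levels chose the genes, their rise over 2D is given as a description with no test. The difference between 3D_L and 3D_E was tested only for the 31 genes on in both, where the choice did not use its sign or size, although it used the level in each of the same libraries. The test also took its spread from all 9 libraries, including the 2D libraries that the choice held low. Standard errors and p-values of these genes may therefore be too small.

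DF-1 is an immortalised line of chicken embryo fibroblasts, labelled as wild type in every group. The 3D_L and 3D_E groups, with 3 libraries each, were grown in suspension without carriers, and the 2D group, also with 3 libraries, is the attached culture. The labels do not spell out L and E. Messenger RNA was selected by its poly-A tail from RNA extracted with trizol. Whether the 3 libraries of a group are separate cultures is not labelled, so p-values measure the spread between these libraries, which may be technical. In RNA from whole cultures, fewer cells of a type and less RNA per cell cannot be told apart.

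Fibroblasts make and remodel the matrix of connective tissue, and they answer to cytokines, growth factors and secreted proteins of the Wnt and BMP families. Many genes for hormones, receptors, tissue-specific enzymes and pigment or nerve cell proteins are usually kept off in them.

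Libraries summed to 641334 to 738281 FPKM, with 9826 to 10395 genes at 1 FPKM or more. The depth of each library is unknown, so no counting interval is given. Of 19 fibroblast markers found, PDGFRA, a growth factor receptor, was the 1 gene under 1 FPKM in every group, and the matrix protein POSTN and the calcium-binding S100A4 were under 1 FPKM in 2D as well. The summed level of the markers was 6208 to 6242 FPKM in 3D_L, 7694 to 9136 FPKM in 3D_E and 3846 to 4607 FPKM in 2D, carried by a few genes such as VIM, the intermediate filament vimentin, with 1899 ± 106 FPKM in 3D_L, 2581 ± 419 FPKM in 3D_E and 319.9 ± 11.8 FPKM in 2D. Of the 18 markers tested, 9 rose and 5 fell in 3D_L against 2D, and 9 rose and 2 fell in 3D_E (limma, adjusted p under 0.05). Those that fell in 3D_L were the collagens COL1A1, COL1A2, COL3A1 and COL5A1 and the matrix protein SPARC. COL1A1 fell to 252 ± 3.68 FPKM in 3D_L and 472 ± 190 FPKM in 3D_E, against 839.5 ± 162 FPKM in 2D. In 2D, 4930 genes were silent, and 2.21% of them met the rule, while 4124 stayed under 0.5 FPKM in all 3 groups.

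The 109 genes together held 572, 547 and 559.5 FPKM in the 3D_L libraries, 1012, 1156 and 1183 FPKM in the 3D_E libraries, and 20.7, 16.1 and 18.7 FPKM in the 2D libraries. Within 2D, 13 of the genes were listed at 0 in every library and 71 were above 0 in every library, and their median 2D mean was 0.133 FPKM. The genes on in both 3D groups had a median level of 5.89 FPKM in 3D_L and 10.3 FPKM in 3D_E. Those on in 3D_L only had a median of 4.61 FPKM there and 0.642 FPKM in 3D_E. Those on in 3D_E only had a median of 4.61 FPKM there and 0.973 FPKM in 3D_L.

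"Only" here means that the other suspension group's mean missed 3 FPKM, not that the gene was silent there. Among the 62 genes on in 3D_E only, 52 had every 3D_L library above every 2D library, and 29 had a 3D_L mean of at least 1 FPKM. Among all genes tested, 34.0% had every 3D_L library above every 2D library. Of the 16 genes on in 3D_L only, 13 had every 3D_E library above every 2D library, as did 37.1% of all genes tested. The rule took genes with low 2D values, so nothing is read from these shares. The libraries overlapped with 2D for DKK3 and GHRL in 3D_L, for example, and for LMO2 and gene-CCL4 in 3D_E, and these genes are described below.

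**Figure D1:**
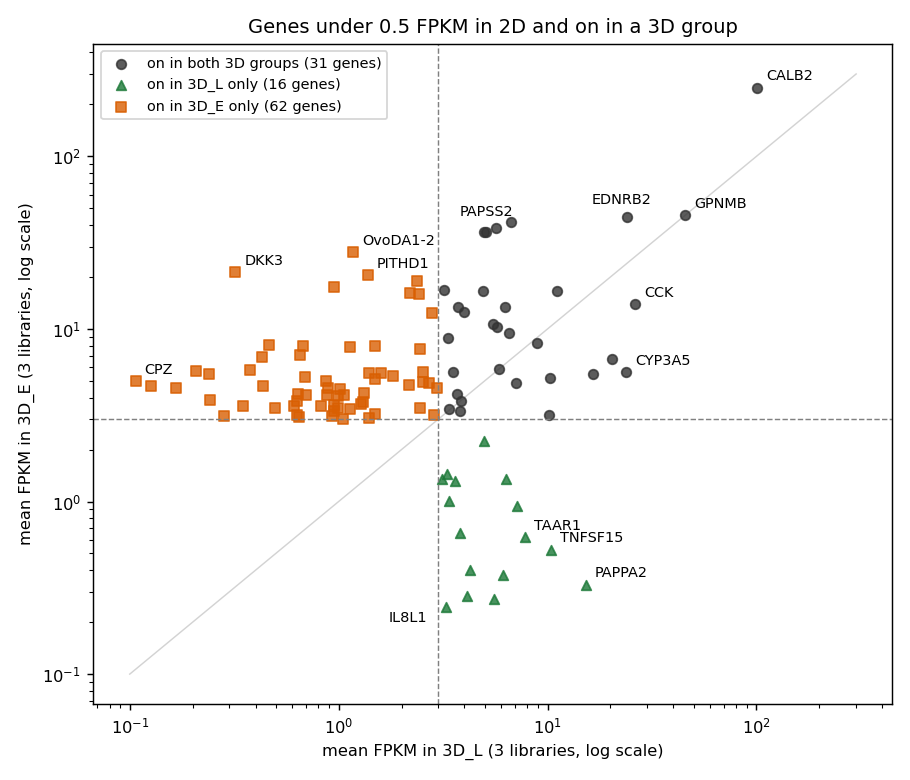
Mean FPKM of each of the 109 genes in 3D_L (x axis) and 3D_E (y axis), both on a log scale, with the dashed lines at 3 FPKM that separate the classes and a grey line of equal levels. CALB2 stands apart at the upper right, GPNMB lies on the line of equal levels, and DKK3 and PAPPA2 lie far to opposite sides of it.

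Secreted signals and hormones numbered 15. Cholecystokinin, CCK, a peptide hormone of gut and brain, had 22.7, 25.8 and 30.5 FPKM in 3D_L, 11.3, 13.4 and 16.9 FPKM in 3D_E, and 0.47, 0.15 and 0.16 FPKM in 2D. All 3D_L libraries were above all 3D_E libraries, and the difference of 0.89 ± 0.166 (SE) on the log2(FPKM + 1) scale passed the test (limma, adjusted p = 0.00172). FAM132A, which encodes the secreted C1q-related protein adipolin, had 10.03, 9.86 and 10.5 FPKM in 3D_L, 3.84, 3.01 and 2.69 FPKM in 3D_E, and 0.16, 0.14 and 0.27 FPKM in 2D. It was higher in 3D_L than in 3D_E by 1.42 ± 0.113 (limma, adjusted p = 7.75e-06). PRLH, the prolactin-releasing hormone, averaged 3.86 ± 0.560 FPKM in 3D_L, 3.83 ± 1.68 FPKM in 3D_E and 0.133 ± 0.231 FPKM in 2D (SD, n = 3 each), and its difference of 0.07 between the suspension groups had a 95% interval of -0.50 to 0.65.

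The 4 secreted signals on in 3D_L only were cytokines and chemokines. TNFSF15, a relative of tumour necrosis factor, had 11.8, 12.4 and 6.77 FPKM in 3D_L, 0.50, 0.49 and 0.59 FPKM in 3D_E, and 0, 0.05 and 0.10 FPKM in 2D. CSF3, the colony-stimulating factor of granulocytes, had 5.20, 5.65 and 5.86 FPKM in 3D_L, 0.20, 0.30 and 0.32 FPKM in 3D_E, and 0.13, 0.06 and 0.06 FPKM in 2D. IL8L1, a chemokine of the interleukin-8 family, averaged 3.28 ± 0.237 FPKM in 3D_L, 0.243 ± 0.0950 FPKM in 3D_E and 0.0200 ± 0.0346 FPKM in 2D. For all 3 of these genes no 3D_L library overlapped with 3D_E or 2D. The rule chose them by these levels, and all 16 genes on in 3D_L only had every 3D_L library above every 2D library. Nothing is therefore read from the lack of overlap. The gene listed as gene-CCL4 had 5.35, 4.13 and 3.30 FPKM in 3D_L, 0.58, 0 and 0.63 FPKM in 3D_E, and 0.57, 0 and 0 FPKM in 2D. The chemokine listed as CCL4 is a separate and very abundant gene, with 2116 ± 210 FPKM in 3D_L, 904 ± 175 FPKM in 3D_E and 1041 ± 125 FPKM in 2D. How reads shared by near-identical genes were assigned is not given in the sources used here, so gene-CCL4 and IL8L1 are less certain.

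The 8 secreted signals on in 3D_E only included developmental ligands and hormones. WNT4, a Wnt ligand, had 1.56, 1.15 and 1.76 FPKM in 3D_L, 8.88, 6.91 and 8.13 FPKM in 3D_E, and 0.05, 0 and 0.05 FPKM in 2D. BMP4, a bone morphogenetic protein, had 0.54, 0.60 and 0.76 FPKM in 3D_L, 1.90, 4.08 and 5.49 FPKM in 3D_E, and 0.10, 0 and 0.05 FPKM in 2D. GDF9, a growth factor best known from oocytes, and AVP, the gene of the vasopressin family, were both listed at 0 in every 2D library and averaged 4.57 ± 1.35 and 4.70 ± 1.69 FPKM in 3D_E. In 3D_L they averaged 0.167 ± 0.0551 and 0.127 ± 0.110 FPKM. The remaining ligands of this class were SEMA7A, a membrane-anchored semaphorin, C1QTNF2 and C1QTNF6, C1q-related secreted proteins, and GHRL, the ghrelin gene, with means of 3.46 to 5.28 FPKM in 3D_E. GHRL averaged 0.493 ± 0.179 FPKM in 3D_L and 0.480 ± 0.164 FPKM in 2D, with overlapping libraries.

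Secreted proteins that bind, cleave or otherwise adjust signals numbered 6, and 4 of them were on in 3D_E only. DKK3, a member of the Dickkopf family, had 0.17, 0.43 and 0.36 FPKM in 3D_L, 20.3, 23.7 and 20.3 FPKM in 3D_E, and 0.30, 0.06 and 0.11 FPKM in 2D. The 3D_L and 2D libraries overlapped, and the 3D_E libraries lay far above both. WIF1, which binds Wnt proteins outside the cell, had 2.42, 2.46 and 2.40 FPKM in 3D_L, 17.6, 17.4 and 13.2 FPKM in 3D_E, and 0.19, 0.27 and 0.23 FPKM in 2D. CPZ, a carboxypeptidase with a Wnt-binding frizzled-like domain, averaged 0.107 ± 0.0551 FPKM in 3D_L, 4.99 ± 0.615 FPKM in 3D_E and 0.310 ± 0.0529 FPKM in 2D, and each of its 3D_L libraries was below each 2D library. TSKU, a small leucine-rich protein that binds several ligands, was at 0 in all 2D libraries and had 5.65, 4.45 and 2.13 FPKM in 3D_E, against a 3D_L mean of 0.997 ± 0.210 FPKM. SULF1, which trims sulphate groups from heparan sulphate, was on at nearly equal levels, 3.39 ± 0.0907 FPKM in 3D_L and 3.43 ± 0.311 FPKM in 3D_E, against 0.0167 ± 0.0115 FPKM in 2D. Its 95% interval for 3D_L minus 3D_E was -0.21 to 0.18 on the log2 scale.

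The sixth of these, PAPPA2, had the highest mean of the genes on in 3D_L only. It encodes a protease that releases insulin-like growth factors from a binding protein. Its levels were 16.6, 16.8 and 12.3 FPKM in 3D_L, 0.36, 0.30 and 0.33 FPKM in 3D_E, and 0.07, 0.02 and 0.02 FPKM in 2D. Its mean was 46.2 times as high in 3D_L as in 3D_E.

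Receptors and other surface proteins numbered 13, and 2 of them were among the most abundant of the 109 genes. GPNMB, a glycoprotein of melanosomes and lysosomes, had 50.5, 45.1 and 41.2 FPKM in 3D_L, 51.3, 53.0 and 32.5 FPKM in 3D_E, and 0.04, 0.09 and 0.07 FPKM in 2D. The suspension libraries overlapped, and the 95% interval of 3D_L minus 3D_E was -0.35 to 0.41. EDNRB2, an endothelin receptor that guides pigment cell precursors in birds, had 24.9, 24.7 and 22.7 FPKM in 3D_L, 46.7, 46.2 and 41.2 FPKM in 3D_E, and 0.18, 0.26 and 0.21 FPKM in 2D. It was lower in 3D_L than in 3D_E by a log2 difference of -0.86 ± 0.0881 (limma, adjusted p = 4.13e-05). PRNP, the prion protein, went the other way, with 17.0, 17.6 and 14.9 FPKM in 3D_L, 6.05, 6.04 and 4.42 FPKM in 3D_E, and 0.50, 0.12 and 0.37 FPKM in 2D, a difference of 1.44 ± 0.144 (limma, adjusted p = 3.71e-05).

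Both interleukin-1 receptors were among the 109 genes. IL1R1, which signals, had 6.0, 6.82 and 4.33 FPKM in 3D_L, 9.95, 10.02 and 10.9 FPKM in 3D_E, and 0.04, 0.11 and 0.12 FPKM in 2D. It was lower in 3D_L than in 3D_E by a log2 difference of -0.77 ± 0.135 (limma, adjusted p = 0.00123). IL1R2, a decoy that binds interleukin-1 without signalling, had 2.67, 2.49 and 2.47 FPKM in 3D_L, 5.19, 5.29 and 6.32 FPKM in 3D_E, and 0.11, 0.14 and 0.28 FPKM in 2D. The 3D_L mean of IL1R2 missed the 3 FPKM that would have put it in the class of IL1R1. Their ligand IL1B was at 0 in every 3D_L and 2D library and reached 0.07 FPKM in a single 3D_E library. LRIG3, a regulator of growth factor receptors, averaged 7.09 ± 0.335 FPKM in 3D_L, 4.85 ± 0.344 FPKM in 3D_E and 0.320 ± 0.132 FPKM in 2D, and was higher in 3D_L than in 3D_E by 0.47 ± 0.101 (limma, adjusted p = 0.00376).

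Among receptors on in 3D_L only, TAAR1, a receptor for trace amines, had 7.70, 7.84 and 7.92 FPKM in 3D_L, 0.69, 0.65 and 0.53 FPKM in 3D_E, and 0.05 FPKM in each 2D library. CHRNA7, the alpha-7 subunit of the nicotinic acetylcholine receptor, had 4.43, 4.44 and 3.47 FPKM in 3D_L, 0.31, 0.17 and 0.37 FPKM in 3D_E, and 0.46, 0.57 and 0.41 FPKM in 2D, so each 3D_E library was below each 2D library. The bradykinin receptor BDKRB1 and the immunoglobulin-domain protein VSIG10L averaged 3.62 ± 0.766 and 3.12 ± 0.320 FPKM in 3D_L. They averaged 1.31 ± 0.415 and 1.35 ± 0.556 FPKM in 3D_E. In the class of 3D_E, TNFRSF19, a receptor of the tumour necrosis factor family, had 2.47, 2.56 and 2.06 FPKM in 3D_L, 19.3, 21.6 and 15.9 FPKM in 3D_E, and 0.06, 0 and 0.04 FPKM in 2D. ANTXR1, a collagen-binding receptor also used by anthrax toxin, had 2.78, 2.86 and 2.72 FPKM in 3D_L, 11.6, 13.1 and 12.2 FPKM in 3D_E, and 0.02, 0.01 and 0.04 FPKM in 2D. TSPAN10, a tetraspanin, was at 0 in all 2D libraries and averaged 0.377 ± 0.0321 FPKM in 3D_L and 5.76 ± 0.476 FPKM in 3D_E.

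**Figure D2:**
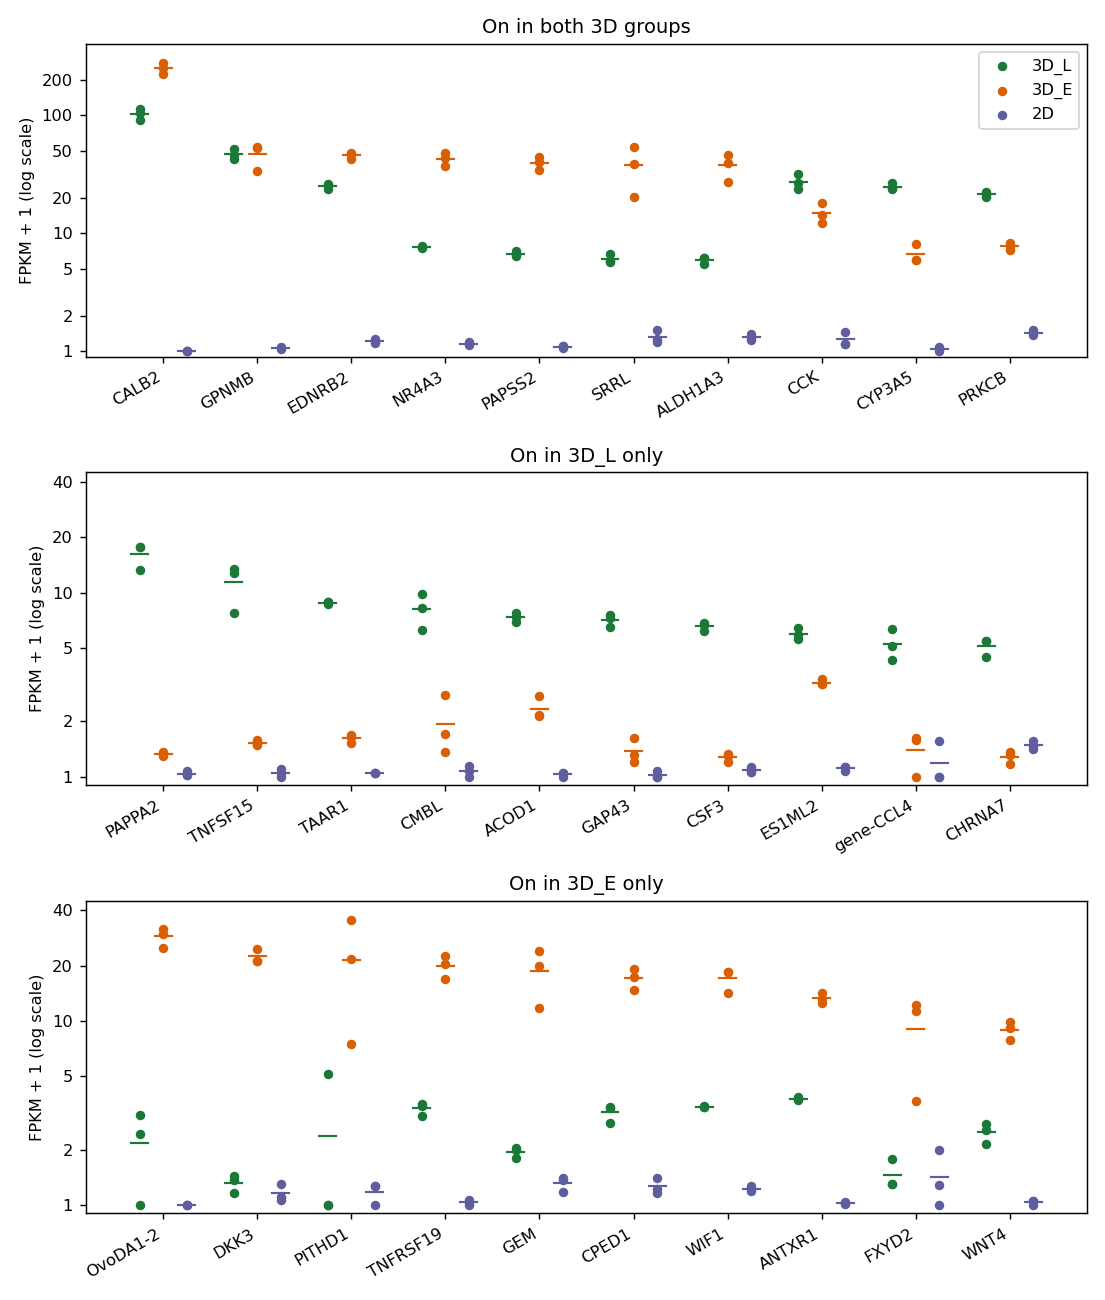
FPKM + 1 on a log axis in each library for the 10 genes with the highest mean in each class, with 3 points per group (3D_L, 3D_E and 2D from left to right) and a bar at the mean. In the upper panel both suspension groups lie above 2D for all 10 genes, and in the lower panels the libraries of the group that names the class lie highest. The rule chose the genes by these levels, so this order largely follows from it. PITHD1, GEM and FXYD2 are widely spread within 3D_E.

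Signalling, cytoskeletal and calcium-binding proteins inside the cell were the largest role, with 21 genes. CALB2, the calcium-binding protein calretinin of certain neurons and mesothelium, was the most abundant of the 109 genes, with 103, 89.0 and 112 FPKM in 3D_L and 223, 250.5 and 276 FPKM in 3D_E. It was listed at 0 in every 2D library. All 3D_L libraries were below all 3D_E libraries, by a log2 difference of -1.30 ± 0.109 (limma, adjusted p = 1.11e-05). PRKCB, a protein kinase C, had 21.2, 20.6 and 19.2 FPKM in 3D_L, 7.30, 6.17 and 6.74 FPKM in 3D_E, and 0.42, 0.52 and 0.37 FPKM in 2D, a difference of 1.46 ± 0.0934 between the suspension groups (limma, adjusted p = 1.93e-06). CRIP1, a small LIM-domain protein, averaged 10.2 ± 0.798 FPKM in 3D_L, 5.20 ± 0.430 FPKM in 3D_E and 0.210 ± 0.110 FPKM in 2D, and it was higher in 3D_L than in 3D_E by 0.86 ± 0.105 (limma, adjusted p = 1.38e-04). GAB3, a docking protein of receptor signalling, and PMP2, listed by RefSeq as the fatty acid binding protein FABP9, were both lower in 3D_L than in 3D_E. Their means were 5.503 ± 0.636 and 3.35 ± 0.834 FPKM in 3D_L, 10.7 ± 1.10 and 8.83 ± 0.731 FPKM in 3D_E, and 0.25 ± 0.0557 and 0 FPKM in 2D.

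GAP43, a protein of nerve growth cones, was on in 3D_L only, with 5.51, 6.60 and 6.26 FPKM, against 0.62, 0.20 and 0.31 FPKM in 3D_E and 0, 0 and 0.08 FPKM in 2D. GEM, a small GTPase that acts on calcium channels and the cytoskeleton, had 1.03, 0.81 and 1.0 FPKM in 3D_L, 18.9, 23.1 and 10.8 FPKM in 3D_E, and 0.18, 0.41 and 0.36 FPKM in 2D. The muscle genes MYH7B, a myosin heavy chain, and TNNT1, the slow skeletal troponin T, had 5.21, 7.22 and 8.76 FPKM and 1.47, 3.51 and 5.80 FPKM in 3D_E. In 3D_L they averaged 0.653 ± 0.0586 and 0.610 ± 0.0954 FPKM, and in 2D 0.0167 ± 0.0208 and 0.460 ± 0.0608 FPKM. HYDIN, a protein of motile cilia, BMF, which promotes cell death, and the ubiquitin ligases MYLIP and RNF122 averaged between 3.85 and 5.56 FPKM in 3D_E. RNF122 and PDZD2, a protein with PDZ domains, were listed at 0 in every 2D library. The class of 3D_E also held SYBU, which links cargo to kinesin motors, the phosphatase PPM1H, the actin-binding protein POF1B, KIAA1217 and the hearing gene DFNB59, with means of 3.00 to 4.90 FPKM there. NCKAP5 was on in 3D_L only, at 3.38 ± 0.103 FPKM, against 1.01 ± 0.240 FPKM in 3D_E and 0.313 ± 0.0351 FPKM in 2D.

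Transcription regulators numbered 9. NR4A3, an orphan nuclear receptor that acute stimuli induce, had 6.61, 6.80 and 6.54 FPKM in 3D_L, 36.2, 42.4 and 46.8 FPKM in 3D_E, and 0.12, 0.21 and 0.15 FPKM in 2D. The groups did not overlap, and 3D_L was lower than 3D_E by a log2 difference of -2.48 ± 0.104 (limma, adjusted p = 2.04e-07). Its relative NR4A1 had 1.13, 1.29 and 0.98 FPKM in 3D_L, 2.09, 2.90 and 5.36 FPKM in 3D_E, and 0.64, 0.30 and 0.49 FPKM in 2D, while the third member of that family, NR4A2, stayed at or under 0.15 FPKM in every library. CBFA2T3, a corepressor, had 4.72, 5.12 and 4.86 FPKM in 3D_L, 13.7, 16.0 and 19.9 FPKM in 3D_E, and 0.37, 0.28 and 0.48 FPKM in 2D, a difference of -1.56 ± 0.129 (limma, adjusted p = 1.06e-05). HNF4beta, a nuclear receptor of the HNF4 family, had 3.82, 3.81 and 3.52 FPKM in 3D_L and 7.38, 13.01 and 19.7 FPKM in 3D_E, against 0.04, 0.34 and 0.11 FPKM in 2D, a difference of -1.51 ± 0.265 (limma, adjusted p = 0.00122).

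TFCP2L1, a factor known from mouse embryonic stem cells and kidney epithelium, averaged 6.56 ± 0.629 FPKM in 3D_L, 9.49 ± 0.519 FPKM in 3D_E and 0.120 ± 0.0458 FPKM in 2D. LMO2, a LIM-domain adaptor of blood and endothelial transcription complexes, was on in 3D_L only, with 3.56, 3.80 and 4.13 FPKM there, 0.65, 0.27 and 1.06 FPKM in 3D_E and 0.62, 0.45 and 0.04 FPKM in 2D, where the last 2 groups overlapped. On in 3D_E only were NR1D1, a repressor of the circadian clock, with 5.55 ± 0.944 FPKM, the homeobox gene HOXC8 with 4.15 ± 1.61 FPKM, and BACH2, a repressor known from lymphocytes, with 3.76 ± 0.148 FPKM. In 3D_L these 3 genes averaged 1.39 ± 0.416, 1.06 ± 0.151 and 1.30 ± 0.110 FPKM, and in 2D 0.480 ± 0.0600, 0.497 ± 0.127 and 0.433 ± 0.0306 FPKM.

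Matrix proteins and proteases numbered 9. SPP1, osteopontin, a matrix protein of bone and of inflamed tissue, had 3.92, 2.26 and 3.44 FPKM in 3D_L, 15.8, 18.8 and 16.1 FPKM in 3D_E, and 0, 0.14 and 0.07 FPKM in 2D. The 3D_L libraries were all below the 3D_E libraries, by a log2 difference of -2.10 ± 0.150 (limma, adjusted p = 3.82e-06). MGP, matrix Gla protein, an inhibitor of calcification, had 7.51, 7.81 and 11.2 FPKM in 3D_L, 6.28, 8.07 and 10.6 FPKM in 3D_E, and 0.16, 0 and 0.16 FPKM in 2D, with overlapping suspension libraries and a 95% interval of -0.33 to 0.51. P3H2, which hydroxylates collagen, averaged 3.53 ± 0.645 FPKM in 3D_L and 5.62 ± 1.02 FPKM in 3D_E, a difference of -0.55 ± 0.144 (limma, adjusted p = 0.0106), against 0.257 ± 0.0862 FPKM in 2D. PRSS35, a protein related to serine proteases, averaged 5.89 ± 0.480 FPKM in 3D_L, 5.87 ± 2.60 FPKM in 3D_E and 0.293 ± 0.00577 FPKM in 2D.

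MMP9, the gelatinase B, was on in 3D_L only, with 3.24, 3.38 and 3.26 FPKM there, 1.26, 1.54 and 1.53 FPKM in 3D_E and 0.40, 0.25 and 0.39 FPKM in 2D. MMP27, another matrix metalloprotease, averaged 1.39 ± 0.183 FPKM in 3D_L, 3.03 ± 0.755 FPKM in 3D_E and 0.0167 ± 0.0289 FPKM in 2D. The gene listed as ASPN, which RefSeq names BGN, had 1.14, 0.98 and 1.26 FPKM in 3D_L, 9.51, 8.49 and 5.72 FPKM in 3D_E, and 0.12, 0.23 and 0.17 FPKM in 2D; both names stand for small leucine-rich proteoglycans. OLFML2B, an olfactomedin-like protein, and the collagen COL26A1 averaged 4.84 ± 0.272 and 3.47 ± 1.39 FPKM in 3D_E. In 3D_L they averaged 2.71 ± 0.275 and 2.44 ± 0.179 FPKM, and the suspension libraries of COL26A1 overlapped.

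Complement, clotting and defence genes were 4. C4A, a complement component, had 6.83, 7.17 and 4.69 FPKM in 3D_L, 15.4, 14.9 and 10.1 FPKM in 3D_E, and at most 0.03 FPKM in 2D, a difference of -1.0 ± 0.175 between the suspension groups (limma, adjusted p = 0.00123). The ovodefensins OvoDA1 and OvoDA1-2, small defence peptides known from the oviduct and egg white of birds, were listed at 0 in every 2D library. OvoDA1-2 had 2.08, 0 and 1.43 FPKM in 3D_L and 23.9, 30.7 and 28.7 FPKM in 3D_E, the highest level among genes on in 3D_E only, and OvoDA1 averaged 0.207 ± 0.358 FPKM in 3D_L and 5.70 ± 0.460 FPKM in 3D_E. The pair may share reads. F5, coagulation factor V, had 2.07, 3.50 and 5.16 FPKM in 3D_E, against 0.820 ± 0.05 FPKM in 3D_L and 0.107 ± 0.0208 FPKM in 2D.

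Metabolic enzymes numbered 14, and the most abundant was PAPSS2, which makes the sulphate donor for proteoglycans and is needed for cartilage. Its levels were 6.07, 5.56 and 5.37 FPKM in 3D_L, 33.0, 38.9 and 43.0 FPKM in 3D_E, and 0.11, 0.11 and 0.07 FPKM in 2D. It was lower in 3D_L than in 3D_E by a log2 difference of -2.55 ± 0.107 (limma, adjusted p = 2.04e-07). Enzymes for both the making and the breaking down of retinoic acid were present. ALDH1A3, which makes it from retinaldehyde, had 5.20, 5.20 and 4.51 FPKM in 3D_L, 45.01, 38.0 and 26.4 FPKM in 3D_E, and 0.39, 0.25 and 0.29 FPKM in 2D. Its difference of -2.62 ± 0.168 was the largest in that direction among the 31 genes on in both (limma, adjusted p = 1.97e-06). CYP26B1, which degrades retinoic acid, had 11.5, 10.8 and 11.1 FPKM in 3D_L, 16.1, 18.03 and 15.4 FPKM in 3D_E, and 0.28, 0.25 and 0.23 FPKM in 2D, a smaller difference of -0.53 ± 0.0879 (limma, adjusted p = 8.92e-04).

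CYP3A5 and CYP3A4, cytochromes P450 that oxidise steroids and foreign compounds, stood in opposite order in the suspension groups. CYP3A5 had 25.4, 22.8 and 23.1 FPKM in 3D_L, 7.10, 4.94 and 4.90 FPKM in 3D_E, and 0.09, 0 and 0.04 FPKM in 2D. Its difference of 1.91 ± 0.129 was the largest rise in 3D_L over 3D_E among the 31 genes (limma, adjusted p = 2.73e-06). CYP3A4 had 1.89, 2.38 and 2.21 FPKM in 3D_L, 3.81, 4.94 and 5.54 FPKM in 3D_E, and 0.04, 0 and 0.04 FPKM in 2D; it was on in 3D_E only, so that difference was not tested. Reads that these related genes share would make both levels less certain.

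ACOD1, which makes the immune metabolite itaconate, had 6.41, 6.72 and 5.94 FPKM in 3D_L, 1.14, 1.73 and 1.16 FPKM in 3D_E, and 0.05, 0 and 0.05 FPKM in 2D. CMBL, a cytosolic hydrolase, was the other enzyme on in 3D_L only, with 5.29, 7.21 and 8.81 FPKM there, 1.77, 0.70 and 0.36 FPKM in 3D_E and 0, 0.07 and 0.14 FPKM in 2D. On in 3D_E only, MGLL, which hydrolyses monoacylglycerols, was at 0 in all 2D libraries and had 9.09, 8.38 and 5.53 FPKM in 3D_E and 2.65, 2.26 and 2.45 FPKM in 3D_L. HEPH, a copper-containing iron oxidase, averaged 1.83 ± 0.148 FPKM in 3D_L, 5.31 ± 0.0404 FPKM in 3D_E and 0.253 ± 0.0503 FPKM in 2D. ENPP2, autotaxin, which makes lysophosphatidic acid, averaged 0.347 ± 0.0208 FPKM in 3D_L, 3.56 ± 0.295 FPKM in 3D_E and 0.0200 ± 0.0200 FPKM in 2D. The glycosyltransferase GCNT2, the phospholipase PLA2G10L and the acetyltransferase PNAT10 had 3D_E means of 3.12 to 4.15 FPKM. ME1, malic enzyme, lay near the border between the classes, with a mean of 2.85 ± 0.194 FPKM in 3D_L and 3.16 ± 0.953 FPKM in 3D_E, with overlapping libraries.

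Transporters and channels numbered 6. SLC25A48, a mitochondrial carrier, had 4.09, 3.74 and 4.16 FPKM in 3D_L, 9.16, 13 and 15.5 FPKM in 3D_E, and 0.29, 0.10 and 0.33 FPKM in 2D, a difference of -1.41 ± 0.164 (limma, adjusted p = 9.65e-05). SLC6A6, the taurine transporter, averaged 3.70 ± 0.552 FPKM in 3D_L, 4.22 ± 0.899 FPKM in 3D_E and 0.0267 ± 0.00577 FPKM in 2D, and its 95% interval of -0.46 to 0.17 held 0. FXYD2, a regulator of the sodium pump, had 0.79, 0.30 and 0.30 FPKM in 3D_L, 2.67, 11.2 and 10.3 FPKM in 3D_E, and 0.29, 0 and 0.98 FPKM in 2D, with overlap between 3D_L and 2D. The glucose transporter SLC5A1, the chloride channel BEST2 and the transporter gene listed as SLC7AL averaged 3.10 to 4.65 FPKM in 3D_E.

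The 12 remaining genes are given without a role. Among them, SRRL had 4.65, 4.79 and 5.71 FPKM in 3D_L, 19.3, 37.5 and 52.7 FPKM in 3D_E, and 0.26, 0.19 and 0.50 FPKM in 2D, a difference of -2.53 ± 0.287 (limma, adjusted p = 8.36e-05). CPED1 averaged 2.19 ± 0.344 FPKM in 3D_L, 16.1 ± 2.24 FPKM in 3D_E and 0.270 ± 0.125 FPKM in 2D. ES1ML2 was on in 3D_L only, with 4.97 ± 0.394 FPKM there, 2.25 ± 0.124 FPKM in 3D_E and 0.110 ± 0.0346 FPKM in 2D. PITHD1 had 0, 0 and 4.15 FPKM in 3D_L, 6.46, 20.7 and 34.2 FPKM in 3D_E, and 0.27, 0.27 and 0 FPKM in 2D, so 1 of the 3D_L libraries stood apart from the other 2. LOC107052673 and LOC112529960 were listed at 0 in every 2D library and averaged 7.96 ± 0.395 and 5.503 ± 2.63 FPKM in 3D_E. The other genes with no role given, all on in 3D_E only, were CUTA, TP53TG5, LOC100857685, LOC107049375, LOC112532477 and LOC427533, with means of 3.15 to 6.92 FPKM there. LOC107049375 lay near the border between the classes, with 2.95 ± 0.216 FPKM in 3D_L and 4.56 ± 1.39 FPKM in 3D_E.

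**Figure D3:**
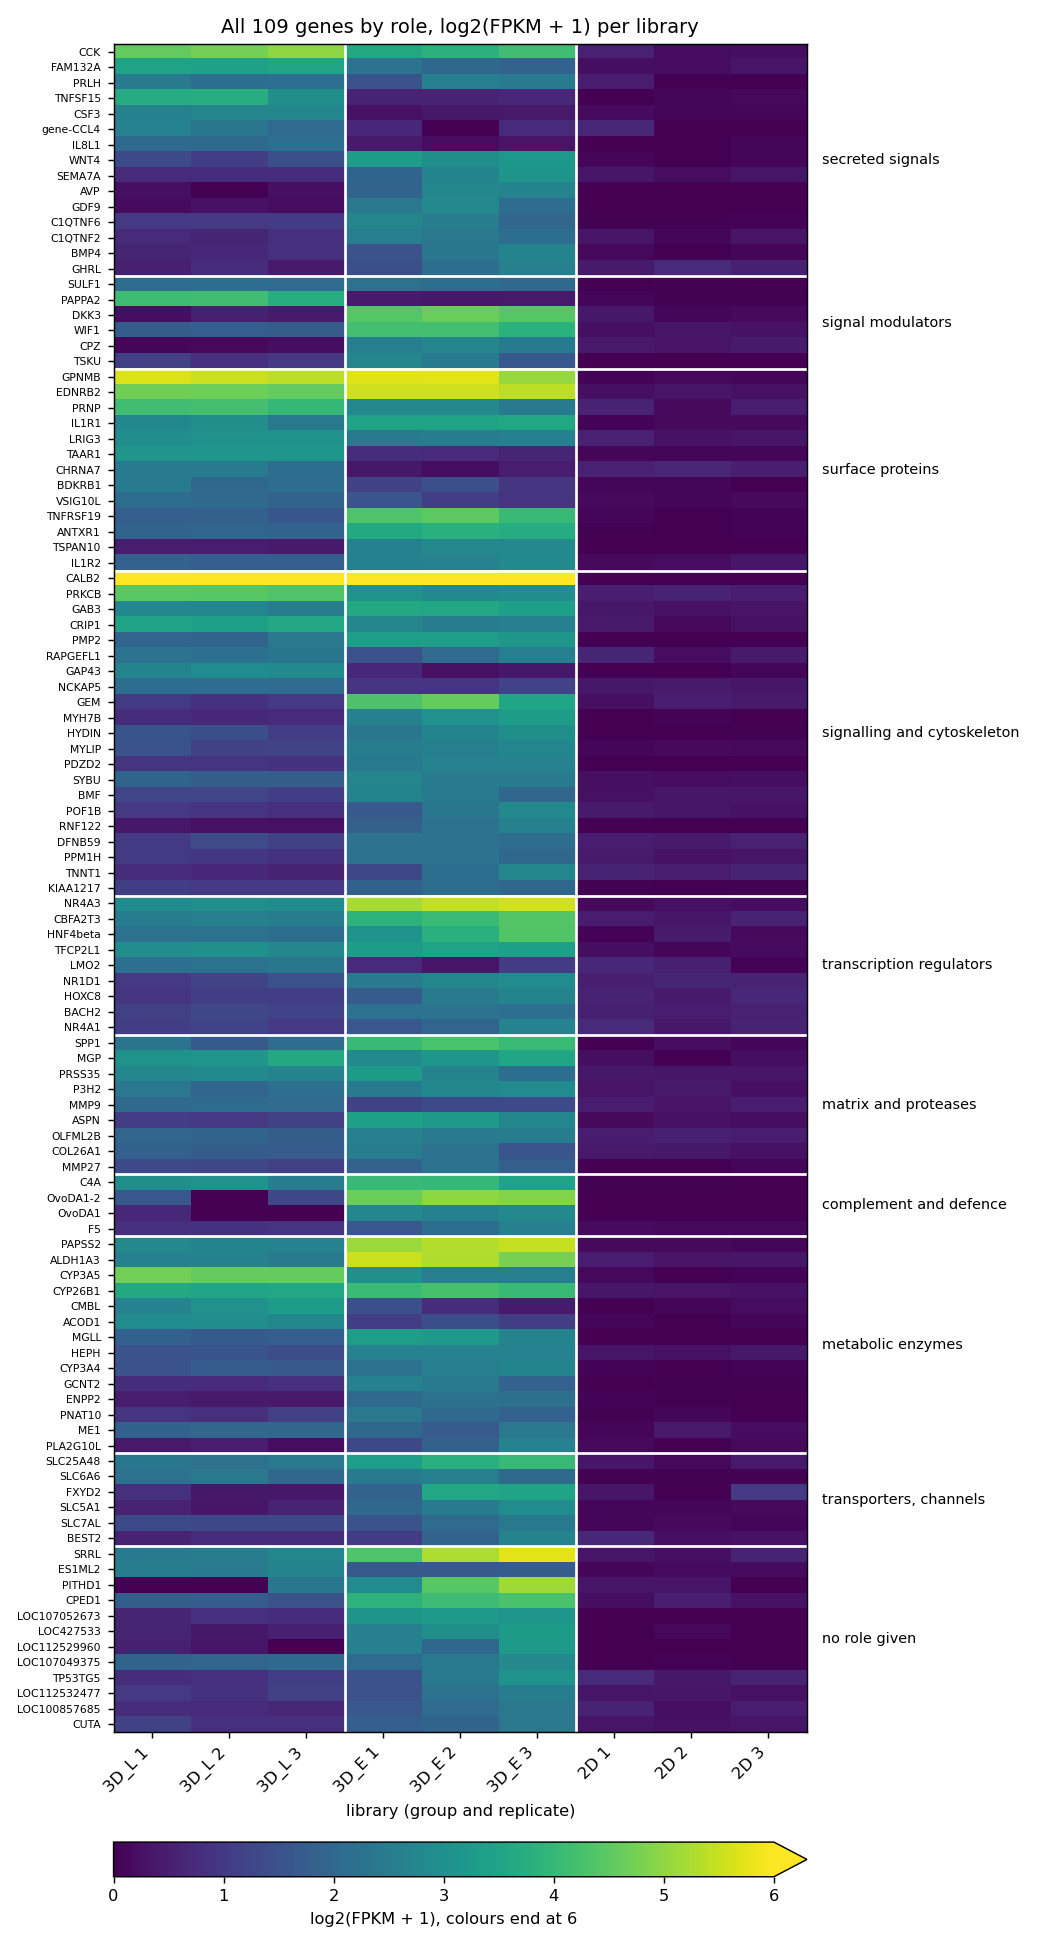
log2(FPKM + 1) of all 109 genes (rows, grouped by role) in each of the 9 libraries (columns, 3D_L, 3D_E and 2D), with brighter colours for higher levels and the scale ending at 6. The 2D columns are dark throughout, because the rule took genes that were low there, and CALB2 is beyond the end of the scale in all 6 suspension libraries.

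Across the 31 genes on in both suspension groups, 24 differed between 3D_L and 3D_E (limma, adjusted p under 0.05), and 17 of these were lower and 7 higher in 3D_L. Over all genes tested, 53.6% were called in this comparison, 26.4% lower and 27.2% higher in 3D_L. The median difference of the 31 genes was -0.53 on the log2 scale, and that of all genes tested was 0.00. All genes are not a matched background here, because the rule took only genes that stood above 2D. Over all genes tested, 36.1% were called higher than 2D in 3D_E and 20.3% in 3D_L. Nothing is therefore read from the contrast between the 31 genes and all genes. The 7 genes higher in 3D_L were CYP3A5, PRKCB, PRNP, FAM132A, CCK, CRIP1 and LRIG3, with differences of 0.47 to 1.91. ALDH1A3, PAPSS2, SRRL, NR4A3, SPP1, CBFA2T3, HNF4beta and SLC25A48 had the 8 largest falls, of -2.62 to -1.41. The 7 genes that were not called, GPNMB, MGP, PRLH, PRSS35, SULF1, RAPGEFL1 and SLC6A6, had differences between -0.14 and 0.21. Leaving out a library moved the number called to 25 at most.

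**Figure D4:**
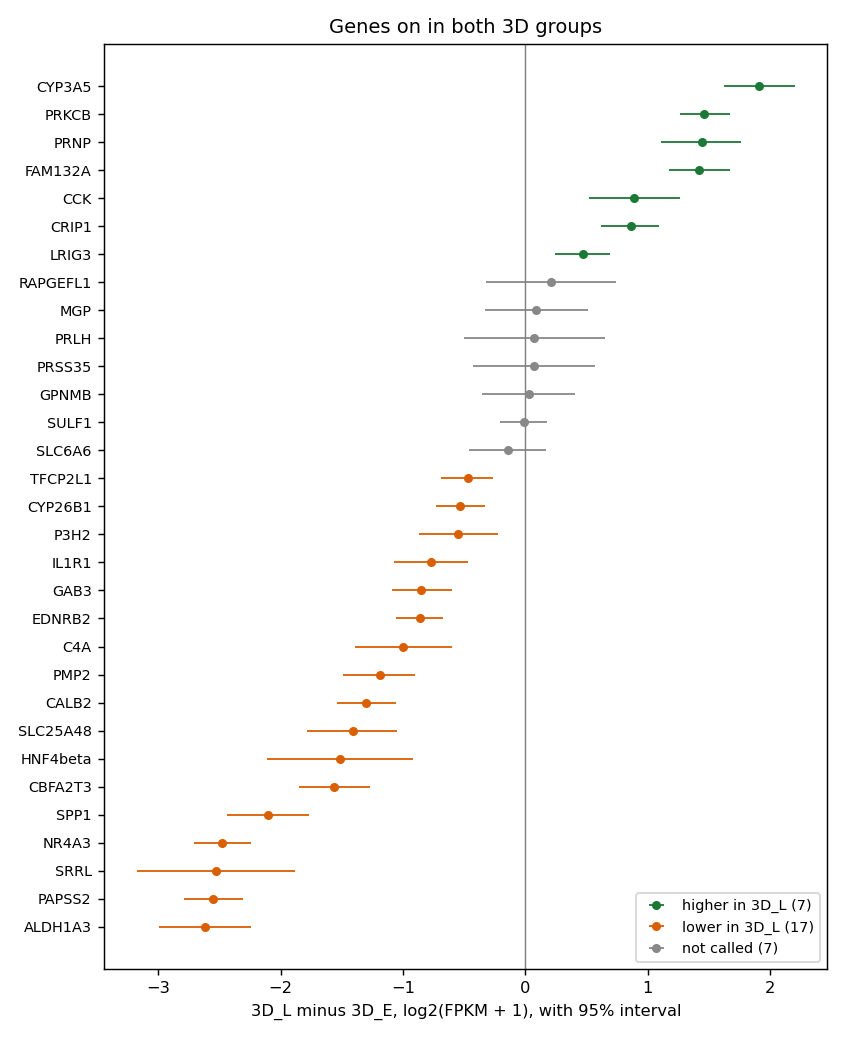
Difference 3D_L minus 3D_E on the log2(FPKM + 1) scale (x axis) with its 95% interval from limma for each of the 31 genes on in both suspension groups, ordered by size. The 7 genes higher in 3D_L lie to the right of 0, the 17 lower ones to its left, and the intervals of the other 7 hold 0.

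The genes on in 3D_E were less even between libraries than those on in 3D_L. The coefficient of variation over 3 libraries had a median of 22.3% for the 93 genes on in 3D_E, against 15.5% for 9066 other genes with the same level and library minimum there. For the 47 genes on in 3D_L the median was 8.16%, against 7.22% for 8966 other genes. In 3D_E, 21 of the 93 genes, or 22.6%, varied by more than 40%, against 4.69% of the other genes, and in 3D_L 0 of 47 did, against 0.435%. The 93 genes were not matched to the others for level, and its part in the spread was not tested. Replicate 3 was the highest library for 45 of the 93 genes and for 48.6% of the other genes. Among the 21 variable genes, picked for their spread, it was the highest for 16, which include PITHD1, SRRL, HNF4beta, BMP4, GHRL, SEMA7A, TNNT1 and NR4A1. TSKU, PRSS35 and COL26A1 were highest in replicate 1, and FXYD2 and PRLH in replicate 2. Replicate 3 was at least 2 times replicate 1 for 21 of the 93 genes, and replicate 1 at least 2 times replicate 3 for 3; among the other genes this held for 6.64% and 3.27%. Without 3D_E replicate 3, 96 of the 109 genes still met the rule, and 49 of the 62 stayed in the class on in 3D_E only.

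**Figure D5:**
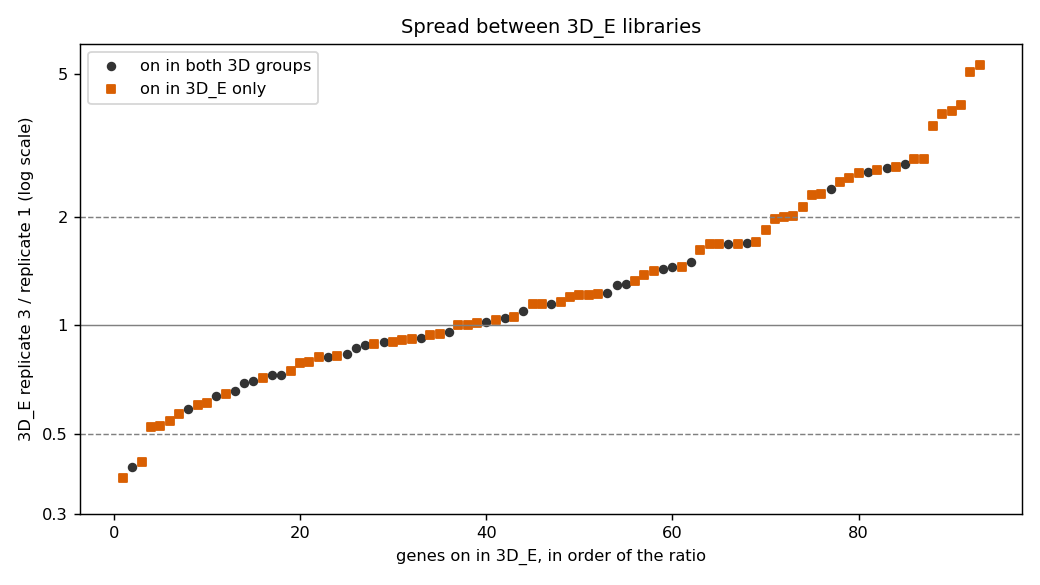
Ratio of replicate 3 to replicate 1 of 3D_E on a log axis for the 93 genes on in that group, in order of the ratio, with lines at equality and at 2 times in either direction. Of these genes, 21 lie on or above the upper line and 3 below the lower line.

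The thresholds leave some genes just inside and just outside. HOXC8 and TP53TG5 met the 2D limit with means of 0.497 and 0.483 FPKM, and PARK2 and LOC107051471 missed it with 0.503 and 0.510 FPKM. KIAA1217 and MMP27 met the suspension limit with 3.00 and 3.03 FPKM, and LOC771657 and GLRX missed it with 2.98 and 2.96 FPKM. The lowest library of BEST2 in 3D_E was 1.08 FPKM and that of TNNT1 was 1.47 FPKM, while the lowest of LOC112531269 and LOC112530633, at 0.56 and 0.42 FPKM, kept them out although they met the other conditions, and no gene but these 2 was kept out in this way. A further 74 genes with a 2D mean of 0.5 to under 1 FPKM met the other conditions, and 77 silent genes had a highest suspension mean of 2 to under 3 FPKM.

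Other genes of the same pathways, which were already expressed in 2D or stayed low, were read from lists chosen with earlier results of these data known. Over all genes tested, 20.3% were called higher and 16.2% lower in 3D_L than in 2D, or 2117 and 1686 genes, and 36.1% were called higher and 32.1% lower in 3D_E than in 2D. Both splits depend on the scaling between libraries. For 3D_L they were 2524 higher and 1292 lower after upper quartile scaling and 1649 higher and 1989 lower after quantile normalization. For 3D_E the values as deposited gave 3766 higher and 3350 lower, with 4345 and 2830 after upper quartile scaling and 3334 and 3627 after quantile normalization. The tested list genes named or counted as changed below kept their direction under both scalings wherever they stayed in the fit. Quantile normalization left 12 instead of 13 immediate early genes tested, and 28 instead of 29 receptor and NF-kB genes. Calls also moved, for example from 19 higher and 3 lower to 16 and 4 for the receptor and NF-kB genes in 3D_L. The 2 comparisons share the 2D libraries.

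Besides TNFSF15, CSF3 and IL8L1, 13 cytokine and chemokine genes were tested. Of these, 11 rose and 1 fell in 3D_L against 2D, with a median difference of 0.80 on the log2 scale (all genes 0.03), and 7 rose and 2 fell in 3D_E, with a median of 0.94 (all genes 0.05). IL11, a cytokine of the interleukin-6 family, had 28.4, 29.4 and 25.7 FPKM in 3D_L, 7.67, 6.73 and 8.98 FPKM in 3D_E, and 1.95, 1.54 and 1.54 FPKM in 2D. Its difference was 3.43 in 3D_L (limma, adjusted p = 3.73e-08) and 1.71 in 3D_E (limma, adjusted p = 1.04e-06). IL8L2 averaged 132.5 ± 1.73 FPKM in 3D_L, 8.86 ± 1.87 FPKM in 3D_E and 0.930 ± 0.398 FPKM in 2D, and thus missed the rule by its 2D level. The chemokine CXCL12 fell in both, to 60.6 ± 6.59 FPKM in 3D_L and 14.15 ± 6.90 FPKM in 3D_E, against 122.8 ± 3.92 FPKM in 2D. Its difference was -1.01 in 3D_L (limma, adjusted p = 0.0105) and -3.12 in 3D_E (limma, adjusted p = 2.85e-06). Among cytokine receptors and NF-kB genes other than IL1R1 and IL1R2, 19 of 29 rose and 3 fell in 3D_L, and 16 rose and 6 fell in 3D_E, with medians of 0.62 and 0.57. IL13RA1, a subunit of the interleukin-4 and interleukin-13 receptors, had 12.4 ± 0.782 FPKM in 3D_L, 28.5 ± 8.23 FPKM in 3D_E and 1.06 ± 0.0961 FPKM in 2D. IL1RAP, the shared second chain of the interleukin-1 receptors, fell to 47.6 ± 3.13 FPKM in 3D_L and 23.9 ± 1.96 FPKM in 3D_E, against 61.1 ± 0.666 FPKM in 2D.

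Immediate early transcription factors other than NR4A3 and NR4A1 rose in 7 of 13 cases and fell in 2 in 3D_L against 2D, and rose in 11 and fell in 2 in 3D_E, with medians of 0.54 and 0.72. KLF4, a zinc finger factor, had 14.5, 15.4 and 20.9 FPKM in 3D_L, 37.8, 51.6 and 68.1 FPKM in 3D_E, and 2.03, 1.26 and 1.77 FPKM in 2D. Mineralised tissue genes other than SPP1 and MGP rose in 3 of 5 cases and fell in 0 in 3D_L, and rose in 4 and fell in 1 in 3D_E, while 14 of the 20 found were under 1 FPKM in every group. COMP, a cartilage matrix protein, had 6.31 ± 0.903 FPKM in 3D_L, 26.2 ± 2.26 FPKM in 3D_E and 1.16 ± 0.0351 FPKM in 2D. Matrix metalloproteases and inhibitors other than MMP9 and MMP27 rose in 7 of 12 cases and fell in 0 in 3D_L, and rose in 9 and fell in 1 in 3D_E. In 3D_L the count of these was 10 higher and 0 lower after upper quartile scaling, and 5 higher and 1 lower after quantile normalization. In the retinoid and cytochrome list, 6 of 10 other genes rose and 2 fell in each of 3D_L and 3D_E. ALDH1A1, a second enzyme that makes retinoic acid, fell to 2.18 ± 0.244 FPKM in 3D_L and 0.623 ± 0.115 FPKM in 3D_E, against 3.67 ± 0.523 FPKM in 2D, while ALDH1A3 stood above its 2D level in both. Of the other complement genes, 2 of 6 rose and 1 fell in 3D_L, and 2 rose and 2 fell in 3D_E. C4, listed apart from C4A, had 7.17 ± 1.14 FPKM in 3D_L, 3.61 ± 0.850 FPKM in 3D_E and 7.60 ± 0.355 FPKM in 2D. No gene of the prostaglandin and eicosanoid list or of the interferon response list met the rule. Of 4 prostaglandin and eicosanoid genes tested, 0 rose and 3 fell in 3D_L, and 0 rose and 4 fell in 3D_E. Their medians were -0.38 and -0.52. Of 19 interferon response genes tested, 1 rose and 1 fell in 3D_L, and 5 rose and 5 fell in 3D_E, with medians of -0.02 and 0.02.

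Markers of other cell types were in many cases under 1 FPKM in every group, but some lists summed to more than 50 FPKM. Besides CALB2 and GAP43, 18 neural and glial markers were found. Of these, 15 were under 1 FPKM in every group, and their summed level lay between 11.9 and 13.8 FPKM in 3D_L, 8.87 and 9.93 FPKM in 3D_E, and 3.77 and 5.06 FPKM in 2D. NEFL, a neurofilament protein, held a good part of this in 3D_L, with 7.05 ± 0.888 FPKM in 3D_L, 1.97 ± 0.165 FPKM in 3D_E and 1.13 ± 0.342 FPKM in 2D. In 3D_E the markers CHGB and MBP were higher than NEFL, at 3.43 ± 1.175 and 2.87 ± 1.44 FPKM. Besides TNNT1, 20 muscle markers were found, 17 of them under 1 FPKM in every group, with a summed level of 35.3 to 36.5 FPKM in 3D_L, 30.4 to 49.5 FPKM in 3D_E and 21.2 to 25.4 FPKM in 2D. Myeloid markers, of which 11 of 21 were under 1 FPKM in every group, summed to 151 to 171 FPKM in 3D_L, 104 to 149 FPKM in 3D_E and 51.3 to 64.7 FPKM in 2D. These sums rest on LAPTM5, a lysosomal protein of blood cells, with 99.6 ± 3.33 FPKM in 3D_L, 21.9 ± 3.74 FPKM in 3D_E and 0.690 ± 0.191 FPKM in 2D, and on the collagen receptor MRC2, with 52.9 ± 13.5 FPKM in 3D_L, 93.2 ± 21.6 FPKM in 3D_E and 51.0 ± 6.36 FPKM in 2D. Of the 8 myeloid markers tested, 3 rose and 2 fell in 3D_L against 2D, and 6 rose and 1 fell in 3D_E. CD74, a chaperone of antigen presentation, fell to 1.37 ± 0.363 FPKM in 3D_L and 1.63 ± 0.210 FPKM in 3D_E, against 2.93 ± 0.129 FPKM in 2D. CTSS, on the same list, had 0.690 ± 0.125 FPKM in 3D_L, 2.86 ± 1.42 FPKM in 3D_E and 0.260 ± 0.0529 FPKM in 2D. The blood cell markers PTPRC and SPI1 stayed under 1 FPKM in every group. Endothelial markers, of which 9 of 14 were under 1 FPKM in every group, summed to 177 to 216 FPKM in 3D_L, 68.0 to 107 FPKM in 3D_E and 181 to 193 FPKM in 2D. Most of this was the transcription factor ERG, with 122 ± 15.4 FPKM in 3D_L, 52.8 ± 16.1 FPKM in 3D_E and 122 ± 5.96 FPKM in 2D, and the receptor FLT1, with 66.5 ± 5.82 FPKM in 3D_L, 27.3 ± 4.47 FPKM in 3D_E and 58.1 ± 2.30 FPKM in 2D. Of the 5 endothelial markers tested, 2 rose and 0 fell in 3D_L against 2D, and 1 rose and 3 fell in 3D_E. Epithelial markers summed to 4.80 to 5.14 FPKM in 3D_L, 3.14 to 7.14 FPKM in 3D_E and 7.25 to 8.28 FPKM in 2D. The 17 adipocyte and lipid droplet genes found summed to 167 to 191 FPKM in 3D_L, 128 to 208.5 FPKM in 3D_E and 102 to 107 FPKM in 2D. Of the 7 tested, 3 rose and 0 fell in 3D_L against 2D, and 5 rose and 1 fell in 3D_E. Lymphoid, erythroid and thrombocyte markers summed to at most 14.1 FPKM in 3D_L, 23.05 FPKM in 3D_E and 15.4 FPKM in 2D. For germ cell and pluripotency markers the highest sums were 15.2, 6.88 and 8.99 FPKM. No gene found from these lists was at 0 in every library, but only 10 of the 15294 genes measured were. Markers not found under the symbols used are not counted. With the members, 20 of 30 neural and glial, 21 of 30 muscle and 21 of 28 myeloid markers were found. For endothelial and epithelial markers it was 14 of 18 and 21 of 25. For adipocyte, lymphoid with erythroid and thrombocyte, and germ cell markers it was 17 of 18, 18 of 26 and 13 of 17. The part of other cell types in the levels of the 109 genes was not tested.

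Genes of the pigment cell and Wnt pathways were looked up after GPNMB, EDNRB2, WNT4, WIF1 and DKK3 had been seen, so their values are given with no test. MITF, the main transcription factor of pigment cells, had 15.8, 16.6 and 14.6 FPKM in 3D_L, 36.4, 35.1 and 31.9 FPKM in 3D_E, and 7.10, 7.07 and 7.33 FPKM in 2D. Its groups did not overlap and stood in the same order as those of EDNRB2. GPNMB did not share this order, with overlapping suspension libraries and means of 45.6 ± 4.64 FPKM in 3D_L and 45.6 ± 11.4 FPKM in 3D_E. Of the 12 pigment cell genes found, 8 were under 1 FPKM in every group. Those that reached 1 FPKM besides MITF did not all share its order. KIT averaged 1.44 ± 0.131 FPKM in 3D_L, 0.107 ± 0.0451 FPKM in 3D_E and 0.0267 ± 0.0153 FPKM in 2D. GPR143 and DCT averaged 0.597 ± 0.148 and 0.587 ± 0.176 FPKM in 3D_L. They averaged 1.31 ± 0.0557 and 1.02 ± 0.320 FPKM in 3D_E, and 0.0300 ± 0.0265 and 0.327 ± 0.0321 FPKM in 2D. The Wnt pathway genes NOTUM, AXIN2 and LEF1 averaged 19.9 ± 0.111, 20.4 ± 2.45 and 17.2 ± 2.06 FPKM in 3D_L. They averaged 86.9 ± 8.25, 41.0 ± 5.63 and 38.9 ± 1.03 FPKM in 3D_E, and 19.1 ± 1.42, 12.8 ± 0.757 and 8.80 ± 0.275 FPKM in 2D. NOTUM thus had overlapping libraries in 3D_L and 2D, as DKK3 did, while AXIN2 and LEF1 were above 2D in both suspension groups. Other genes of the pathway did not share this order: NKD1, an inhibitor of Wnt signalling, averaged 11.1 ± 0.155 FPKM in 3D_L, 17.0 ± 1.81 FPKM in 3D_E and 14.3 ± 0.707 FPKM in 2D. WNT5B averaged 1.29 ± 0.135 FPKM in 3D_L, 0.660 ± 0.135 FPKM in 3D_E and 2.97 ± 0.869 FPKM in 2D, and the transcription factor TCF7 averaged 1.13 ± 0.104 FPKM in 3D_L, 0.557 ± 0.0681 FPKM in 3D_E and 1.37 ± 0.311 FPKM in 2D. Of the 28 Wnt pathway genes found besides those among the 109, 15 were under 1 FPKM in every group. The median difference from 2D of the 13 that entered the fit was 0.11 in 3D_L and 0.29 in 3D_E on the log2 scale (all genes 0.03 and 0.05).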

How the data were processed

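RNA-seq of 9 libraries was deposited by the authors as FPKM per gene, per the file headers, in a table of 94 columns. Besides gene annotation, only the 9 columns named for the samples were used, and 82 unnamed columns were not. The submitters' processing notes name HISAT2 2.0.5, DESeq2, R 3.4.2 and the chicken build GRCg6a. For the counting tool, its use of strand and its treatment of shared reads, the sources used here give nothing. Depth is unknown.

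The 109 genes and all gene lists were chosen with earlier results of these data known. The 10436 genes that reached 1 FPKM in 3 or more libraries were fitted on log2(FPKM + 1) over all 9 libraries with limma 3.58.1 in R 4.3.3, and p-values were adjusted by Benjamini-Hochberg over all of them, with calls at 0.05. Fold changes on this scale understate the change of low genes. The fit was also run on simulated data, where every group had the spread of the 3D_L libraries and differences were planted only in genes of higher level. No simulated group was silent as 2D is here, so that run cannot speak for the genes described. Genes named were the 10 highest per class, members of a list, the largest differences between 3D_L and 3D_E, and those nearest the thresholds, and further genes were chosen for their role after their values had been seen. For other list genes, those with the largest called differences were eligible. Alternatives were other thresholds, pseudocounts, filters and scalings, array weights, fits of 2 groups, a replicate block and leaving out each library. RefSeq symbols (GRCg7b) were matched for 104 of the 109 genes, and no coordinates or sequences are given.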

Additional observations from a re-analysis of the deposited data

How the results depend on the processing

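Other thresholds move the number of genes that meet the rule, and this follows from their construction. With the 2D limit at 0.25 FPKM instead of 0.5, 72 genes met it (19 on in both suspension groups, 41 on in 3D_E only), and with 1 FPKM 183 did (48 and 112). With the suspension limit at 2 FPKM, 184 genes met it (49 on in both, 28 in 3D_L only, 107 in 3D_E only), with 5 FPKM 58 (18, 9 and 31), and with 10 FPKM 31 (5, 7 and 19). Without the library minimum 111 genes met it, and with the median of the 3 libraries in place of their mean also 111, of which 103 are among the 109. After upper quartile scaling 118 genes met it, and after quantile normalization 86. Leaving out 1 library each in turn gave 102 to 126 genes in all, 30 to 31 on in both, 14 to 17 in 3D_L only and 55 to 79 in 3D_E only.

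The count of 24 called among the 31 genes on in both was 23 to 25 under every alternative, 24 to 25 when leaving out 1 library. Not all 31 genes were tested each time. P3H2, PRLH, RAPGEFL1, SLC6A6 and SULF1 were tested under 17 of the 18 alternatives of the fit, and P3H2 was called in all 17. Among 553 values of single genes, 551 kept their side of the threshold, and no called gene changed direction. The 2 values that moved came past the threshold: PRSS35 without 3D_E replicate 1 (0.35, limma adjusted p = 0.0477) and RAPGEFL1 without 3D_E replicate 3 (0.48, limma adjusted p = 0.0457). Among genes not called in the main fit, GPNMB, MGP, PRLH, PRSS35, SULF1 and RAPGEFL1 changed sign between alternatives. Over all genes, 3803 differed between 3D_L and 2D, 5783 in a fit of these groups alone and 5839 with array weights, and 2633 to 5141 when leaving out 1 library. The cause was not tested. For 3D_E against 2D the count was 7116 (6292 to 7902), and for 3D_L against 3D_E 5591 (4252 to 7047). Replicates with the same number did not clearly deviate together (correlations of -0.404 to 0.182). Whether the numbers pair the libraries is not labelled, and these correlations cannot settle it. With a replicate block, the counts were 24 of the 31 genes, 3336 for 3D_L against 2D, 6915 for 3D_E against 2D and 5281 for 3D_L against 3D_E. With 3 libraries a group and depth unknown, no counting error can be given for levels near the limits.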

Other observations

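The reverse pattern, at least 3 FPKM in 2D with every library at 1 FPKM or more and under 0.5 FPKM in a suspension group, held for 13 genes, 2 of them silent in 3D_L and 12 in 3D_E. CSRP2, a LIM-domain protein of smooth muscle, was silent in both, with 0.120 ± 0.120 FPKM in 3D_L, 0.140 ± 0.140 FPKM in 3D_E and 4.23 ± 0.530 FPKM in 2D (SD, n = 3 each). NALCN, a sodium leak channel, averaged 0.757 ± 0.0451 FPKM in 3D_L, 0.0233 ± 0.0153 FPKM in 3D_E and 5.84 ± 0.386 FPKM in 2D. TLR3, a sensor of double-stranded RNA, averaged 1.83 ± 0.146 FPKM in 3D_L, 0.380 ± 0.102 FPKM in 3D_E and 3.83 ± 0.395 FPKM in 2D. These levels chose the genes, so no test is given.

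In the RefSeq gene order of GRCg7b, 7 pairs of the 109 genes have at most 2 listed genes between them. How often other genes lie this close was not counted, so nothing is read from these pairs. IL1R2 and IL1R1 on chromosome 1, and CYP3A4 and CYP3A5 on chromosome 14, have 0 listed genes between them. OvoDA1 and OvoDA1-2 have 1 gene between them on chromosome 3, as do PRSS35 and ME1. CALB2 and HYDIN have 2 genes between them on chromosome 11. On chromosome 27, CSF3, NR1D1 and RAPGEFL1 follow each other with 2 genes between each pair, and they belong to 3 different classes: on in 3D_L only, in 3D_E only and in both.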
